A study of Mus musculus with 6 samples.

Results

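Citrate is a main product of prostatic secretion, and 9 genes of citrate and tricarboxylic acid (TCA) cycle enzymes were followed by symbol in the 34745 genes of the deposited table. They are Cs, Aco1, Idh1, Idh2, Idh3a, Ogdh, Mdh2, Acly and Me1, and each symbol had 1 row. The series holds the prostates of 6 male C57BL/6 mice, which entered the study at an age of 6 to 8 weeks. The 3 mice of the T + E2 group carried a subcutaneous slow-release pellet of testosterone and estradiol, mixed 10 to 1 and renewed each month, for 12 weeks. The 3 mice of the CON group had the same skin incision and closure without a pellet. The hormones reached the whole animal rather than 1 cell type. The RNA came from whole prostate tissue, in which epithelium, smooth muscle and other cells are mixed.

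In the mitochondrion, citrate synthase (Cs) joins acetyl-CoA to oxaloacetate, and isocitrate dehydrogenase, oxoglutarate dehydrogenase (Ogdh) and malate dehydrogenase (Mdh2) carry the carbon around the cycle. Secretory epithelium of the prostate is known for letting citrate accumulate and leave the cell instead of oxidising it. Citrate that reaches the cytosol can be cleaved by ATP citrate lyase (Acly) into acetyl-CoA for lipid synthesis, and isocitrate dehydrogenase 1 (Idh1) and malic enzyme 1 (Me1) make NADPH there.

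Each library held 14816146 to 16555549 reads counted on genes, and each of the 9 genes had at least 404 reads in every mouse, so none was near the limit of detection. Values are given as CPM, which are counts scaled to a common library total with TMM factors. A positive log2 fold change means more RNA in the T + E2 group, and edgeR's quasi-likelihood test was adjusted over all 15580 tested genes by the Benjamini-Hochberg method. The prostate secretory gene Pbsn was high in both groups, with a mean of 14177 CPM in the CON group and 1445 CPM in the T + E2 group. CON replicate 2 stood apart, since 6 seminal vesicle genes summed to 10288 CPM in it, against 3.84 and 0.629 CPM in the other CON mice. T + E2 replicate 2 had 642 CPM of these genes, and the other T + E2 mice 3.32 and 1.47 CPM. Adipocyte genes summed to 534 CPM in CON replicate 2, against 84.5 and 124 CPM in the other CON mice and 44.4 to 142 CPM in the T + E2 group. Calls that were lost without CON replicate 2 or without both libraries are named beside the results, or the genes that kept theirs are.

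Of the 9 genes, Me1 rose and Idh2 fell, with an adjusted p under 0.05, and 7 did not pass, which does not show that these were equal in both groups. Among all tested genes 19.6% passed, 10.4% higher and 9.25% lower in the T + E2 group, so 2 of 9 is near that background. No member was a differentially expressed gene (DEG) by the study's thresholds, which add an absolute log2 fold change over 1 and which 7.64% of all tested genes met. The count of DEGs among the members was 0 with edgeR, DESeq2 and limma alike, while 4 members had an unadjusted p under 0.05 by edgeR. The groups did not overlap for Cs, Idh2, Acly and Me1, 4 of 9 genes, against 40.7% of all tested genes. The median log2 fold change of the 9 genes was -0.15, and that of all tested genes was -0.002. Without both libraries that held seminal vesicle RNA the median of the 9 genes was -0.07. In whole tissue, fewer cells of a type and less RNA per cell cannot be told apart.

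**Figure D1:**
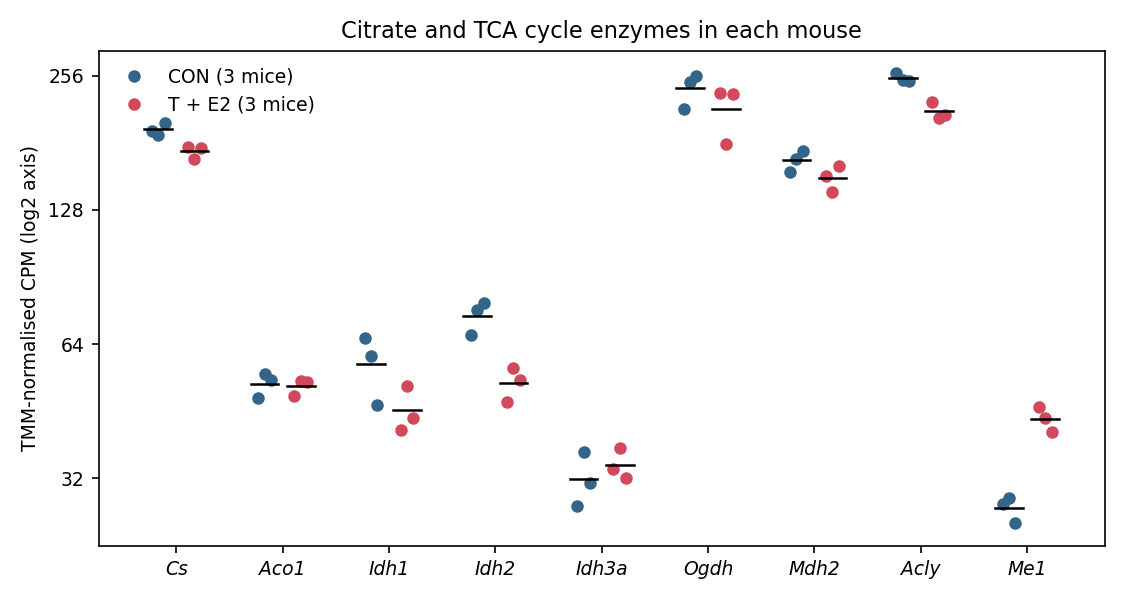
TMM-normalised CPM of each of the 9 enzymes in each mouse, on a log2 axis, with CON mice in blue, T + E2 mice in red and a bar at the mean of each group. All 3 T + E2 values of Me1 lie above the CON values and all 3 of Idh2 lie below them, while the values of Aco1 and Idh3a are intermingled.

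The 2 genes that passed are shown with the 250 bases before their RefSeq transcription start (GRCm38.p6), because they are the members called in the fit with all mice. CCAAT is in capitals, on either strand. The Idh2 window lies at chr7:80115351-80115600 on the minus strand, and the Me1 window at chr9:86695915-86696164 on the minus strand.

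Idh2: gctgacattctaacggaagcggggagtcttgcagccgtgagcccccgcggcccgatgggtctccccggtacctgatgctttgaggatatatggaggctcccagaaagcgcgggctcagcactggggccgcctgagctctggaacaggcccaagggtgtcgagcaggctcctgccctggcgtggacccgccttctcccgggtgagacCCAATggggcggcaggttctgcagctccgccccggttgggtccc

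Me1: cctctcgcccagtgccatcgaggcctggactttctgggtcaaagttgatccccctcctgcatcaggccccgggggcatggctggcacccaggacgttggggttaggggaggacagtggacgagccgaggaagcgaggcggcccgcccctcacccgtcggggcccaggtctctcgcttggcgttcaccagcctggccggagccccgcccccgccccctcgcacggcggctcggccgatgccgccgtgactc

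In the Idh2 window CCAAT occurred once, from 44 to 40 bases before the start. CCAAT was found in the windows of 4 of the 8 members that have one (Cs, Idh1, Idh2 and Ogdh) and in 34.5% of 27025 windows of the same length. AGAACA, 1 arm of the paired androgen receptor site, occurred in 1 of the 8 (Aco1) and in 16.1% of all windows. AGGTCA, 1 arm of the sites of several nuclear receptors, occurred in 1 of the 8 (Acly) and in 13.8%. TCAAGGTCA, the site of estrogen-related receptors, which contains AGGTCA, was in none of the 8 and in 0.366% of all windows. The E-box CACGTG and the sterol regulatory element TCACNCCAC were also in none of the 8, against 6.04% and 1.03%. The Me1 window held none of these letters on either strand, which says only that they are not in these 250 bases. Its GC content was 72% and that of the Idh2 window 67.2%, against a median of 52% over all windows. No window was used for Idh3a.

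Me1 encodes the cytosolic malic enzyme, which turns malate into pyruvate and makes NADPH (chromosome 9 of GRCm38, 86581371 to 86695953). It had 28.0, 29.0 and 25.4 CPM in CON mice, against 46.3, 43.8 and 40.6 CPM in T + E2 mice. Every treated mouse lay above every control mouse, and the gap between the groups was wider than the range within either. Mean levels were 27.5 ± 1.85 CPM in the CON group and 43.6 ± 2.86 CPM in the T + E2 group (SD, n = 3 in each). Me1 rose 1.59-fold, a log2 fold change of 0.67 ± 0.10 (SE, edgeR adjusted p = 0.00273), with a 95% interval of 1.36-fold to 1.85-fold. It passed in each of the 6 fits that left out 1 mouse, with log2 fold changes of 0.61 to 0.71, and also without both libraries that held seminal vesicle RNA (0.70, edgeR adjusted p = 0.0286). The use of strand in the counting was not stated. Transcripts of the GENCODE genes Gm7049 and Gm48795 match that of Me1 with 98.4% and 98.7% identity over 1716 and 1159 bases, and 30 exonic bases of Me1 are shared with A330041J22Rik on the opposite strand, and these were not analysed here.

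Idh2 encodes the mitochondrial isocitrate dehydrogenase that uses NADP+ (chromosome 7, 80094846 to 80115392). It had 67.2, 76.4 and 79.0 CPM in CON mice, against 47.5, 56.7 and 53.2 CPM in T + E2 mice. The lowest CON mouse lay above the highest T + E2 mouse. The means were 74.2 ± 6.17 and 52.4 ± 4.66 CPM (SD, n = 3 in each), a log2 fold change of -0.50 ± 0.11 (SE, edgeR adjusted p = 0.0146) or 0.707-fold, with a 95% interval of 0.597-fold to 0.838-fold. Without CON replicate 2 the log2 fold change was -0.48 (edgeR adjusted p = 0.0513), without CON replicate 3 it was -0.45 (edgeR adjusted p = 0.0529) and without T + E2 replicate 1 it was -0.43 (edgeR adjusted p = 0.0591). Without both libraries that held seminal vesicle RNA it was -0.54 (edgeR adjusted p = 0.0678). The call of Idh2 was thus lost in 3 of the 6 fits with 1 mouse left out, and all of these values stayed below 0.

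Idh1, the cytosolic counterpart of Idh2 (chromosome 1, 65158616 to 65186500), had 66.0, 60.3 and 46.7 CPM in CON mice, against 41.0, 51.6 and 43.7 CPM in T + E2 mice. CON replicate 3 lay among the T + E2 mice, so the groups overlapped. The log2 fold change was -0.34 ± 0.15 (SE, edgeR adjusted p = 0.141), and with 1 mouse left out it ran from -0.24 without CON replicate 1 (edgeR adjusted p = 0.322) to -0.47 without CON replicate 3 (edgeR adjusted p = 0.0556). Idh3a, the catalytic subunit of the NAD+-dependent isocitrate dehydrogenase of the cycle itself (chromosome 9, 54586511 to 54604661), had 27.7, 36.6 and 31.3 CPM in CON mice, against 33.6, 37.5 and 32.03 CPM in T + E2 mice. These values were intermingled, with a log2 fold change of 0.11 ± 0.12 (SE, edgeR adjusted p = 0.574) and a 95% interval of 0.885-fold to 1.31-fold.

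Acly, which cleaves cytosolic citrate (chromosome 11, 100476353 to 100528000), had 259.0, 250.6 and 248.5 CPM in CON mice, against 223.3, 205.8 and 208.9 CPM in T + E2 mice. The groups did not overlap and the spread within them was small, with means of 252.7 ± 5.56 and 212.7 ± 9.33 CPM (SD, n = 3 in each). The log2 fold change of -0.25 ± 0.08 (SE, edgeR adjusted p = 0.071) missed the threshold, and its 95% interval ran from 0.738-fold to 0.960-fold. Under 4 of the 9 other settings Acly passed, among them total-count scaling (-0.29, edgeR adjusted p = 0.0392) and limma on log2(FPKM + 1) (-0.28, limma adjusted p = 0.0308).

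Cs, the enzyme that makes citrate (chromosome 10, 128337832 to 128362479), had 192.6, 187.9 and 200.8 CPM in CON mice, against 177.1, 166.7 and 175.7 CPM in T + E2 mice. No T + E2 value reached the CON values, but the difference was small, with a log2 fold change of -0.16 ± 0.08 (SE, edgeR adjusted p = 0.191) and a 95% interval of 0.787-fold to 1.02-fold. The transcript of Csl matches that of Cs with 91.9% identity over 1522 bases, and Csl had at most 3 counts in any mouse. Mdh2, which regenerates oxaloacetate for Cs (chromosome 5, 135778480 to 135790398), ranged from 155.6 to 173.2 CPM in the CON group and from 140.0 to 160.8 CPM in the T + E2 group. Ogdh, the first component of the oxoglutarate dehydrogenase complex (chromosome 11, 6291633 to 6356642), ranged from 215.1 to 255.96 CPM and from 180.2 to 233.4 CPM. Both overlapped between the groups, with log2 fold changes of -0.13 and -0.15 (edgeR adjusted p = 0.349 and 0.427). The lowest value of each in the T + E2 group was that of replicate 2, without which the log2 fold changes were -0.08 for Mdh2 and -0.04 for Ogdh. Without both libraries that held seminal vesicle RNA they were -0.07 and -0.02.

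Aco1 encodes the cytosolic aconitase, which without its iron-sulfur cluster acts as iron regulatory protein 1 (chromosome 4, 40143081 to 40198338). It had 48.5, 54.9 and 53.3 CPM in CON mice, against 48.9, 52.9 and 52.6 CPM in T + E2 mice, and no order of the groups could be seen. The log2 fold change was -0.02 ± 0.09 (SE, edgeR adjusted p = 0.891), with a 95% interval of 0.854-fold to 1.14-fold, the value nearest to 0 among the 9 genes. Its sign was not fixed, since the values with 1 mouse left out ran from -0.07 to 0.02.

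**Figure D2:**
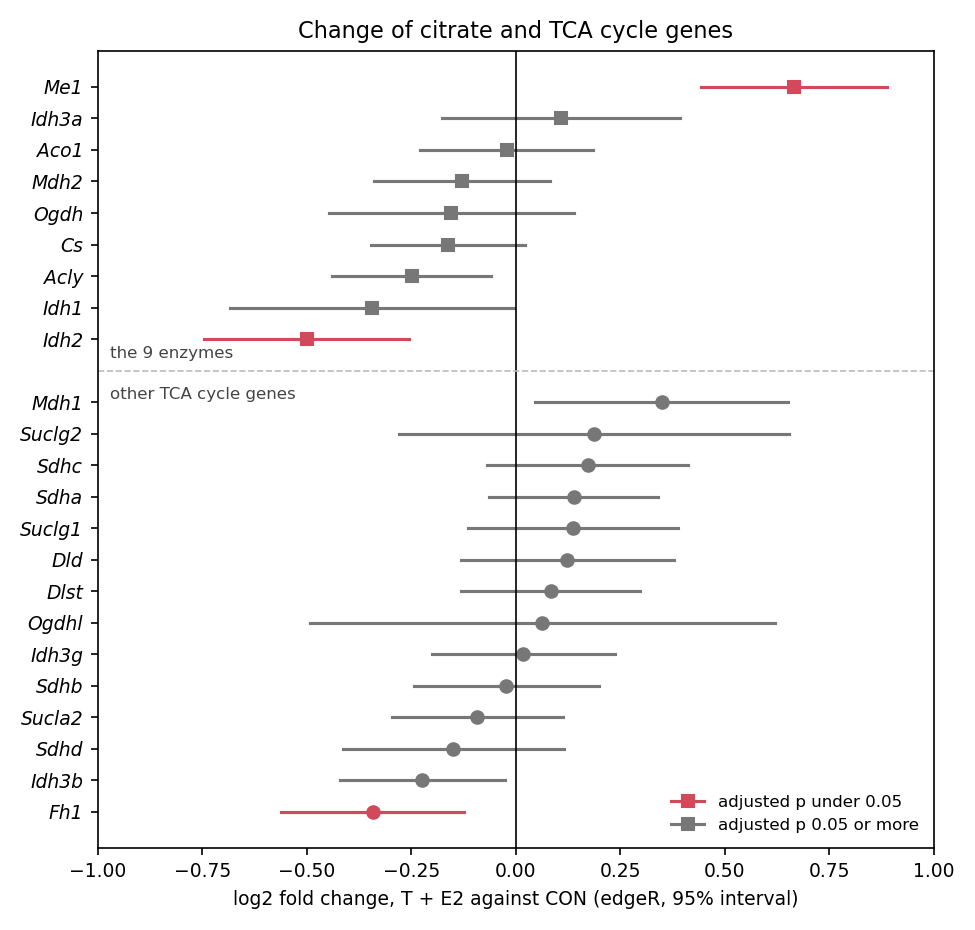
Log2 fold change of the T + E2 group against the CON group from edgeR, with 95% intervals, for the 9 enzymes (squares) and 14 of the 15 tested other genes of the TCA cycle (circles), in red where the adjusted p is under 0.05. Me1 lies at 0.67 and Idh2 at -0.50, Fh1 is the other gene in red at -0.34, and the intervals of most of the remaining genes include 0.

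Levels of different genes were compared per length, as FPKM deposited by the authors. In the CON group Cs was highest, at 69.3 FPKM, followed by Mdh2 at 32.4, Acly at 31.2, Ogdh at 29.7, Idh2 at 14.5, Idh3a at 13.4, Idh1 at 12.9, Aco1 at 10.6 and Me1 at 4.98 FPKM. The ranges over the 3 mice overlapped between neighbours from Mdh2 to Ogdh and from Idh2 to Aco1, while Cs lay above all and Me1 below all. In the T + E2 group Cs was again highest, at 60.4 FPKM, and Me1 lowest, at 7.68 FPKM. The 2 isocitrate dehydrogenases that use NADP+ had 10.02 FPKM (Idh2) and 9.92 FPKM (Idh1), below Idh3a at 14.1 FPKM. The order of levels depends on the gene length behind the FPKM. For Cs and Idh3a this length, 2828 and 2403 bases, was shorter than all GENCODE exons of the gene together (5779 and 5072 bases). For the other members it was longer than these, as for Idh2 with 5166 against 2588 bases, so unlike lengths stand behind the order. For Mdh2 it was 5163 bases, against 3562 bases of all exons and 1456 bases for its GENCODE transcript with the longest coding sequence. With the length of that transcript, a choice made after seeing the data, Mdh2 led with a mean of 114.8 on the FPKM scale in the CON group, ahead of Cs with 67.0, and Me1 was still lowest with 8.46. The order of the isocitrate dehydrogenases in the T + E2 group turned round with that length, to 29.7 for Idh2, 19.5 for Idh1 and 13.1 for Idh3a.

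To compare enzymes of the cytosol with those of the mitochondrion within each mouse, 5 ratios of FPKM were formed, of which 4 are given. The ratio of Me1 to Me2, the mitochondrial malic enzyme, was 0.477, 0.549 and 0.381 in CON mice, against 1.09, 1.18 and 1.24 in T + E2 mice. All T + E2 ratios lay above all CON ratios. Which of the 2 genes was higher in CON mice depended on the gene length, since Me1 had more CPM than Me2 in CON replicates 1 and 2, whereas the difference between the groups was the same with CPM. The ratio was 2.52-fold higher in the T + E2 group, a log2 difference of 1.33, with an SD of 0.27 in the CON and 0.10 in the T + E2 mice (two-sided exact permutation test, p = 0.1, the smallest that 3 against 3 mice allow, and 0.25 adjusted over all 5 ratios). Me2 fell, from a mean of 26.1 ± 3.06 to 16.4 ± 2.17 CPM (± SD, 3 mice a group, log2 fold change -0.67, edgeR adjusted p = 0.0129), but did not pass without both libraries that held seminal vesicle RNA.

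The ratio of Mdh1, the cytosolic malate dehydrogenase, to Mdh2 was 2.13, 2.32 and 2.32 in CON mice, against 3.09, 3.92 and 2.55 in T + E2 mice. It was 1.39-fold higher in the T + E2 group, without overlap (exact permutation test, p = 0.1, adjusted 0.25). Mdh1 itself had a log2 fold change of 0.35 that did not pass (edgeR adjusted p = 0.101). The ratio of Idh1 to Idh2 ran from 0.676 to 1.12 in the CON mice and from 0.939 to 1.04 in the T + E2 mice (exact permutation test, p = 0.6). The ratio of Acly to Cs ran from 0.427 to 0.464 and from 0.411 to 0.435 (exact permutation test, p = 0.2). Both of these ratios overlapped between the groups, and with 3 mice in each none could reach a p below 0.1.

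**Figure D3:**
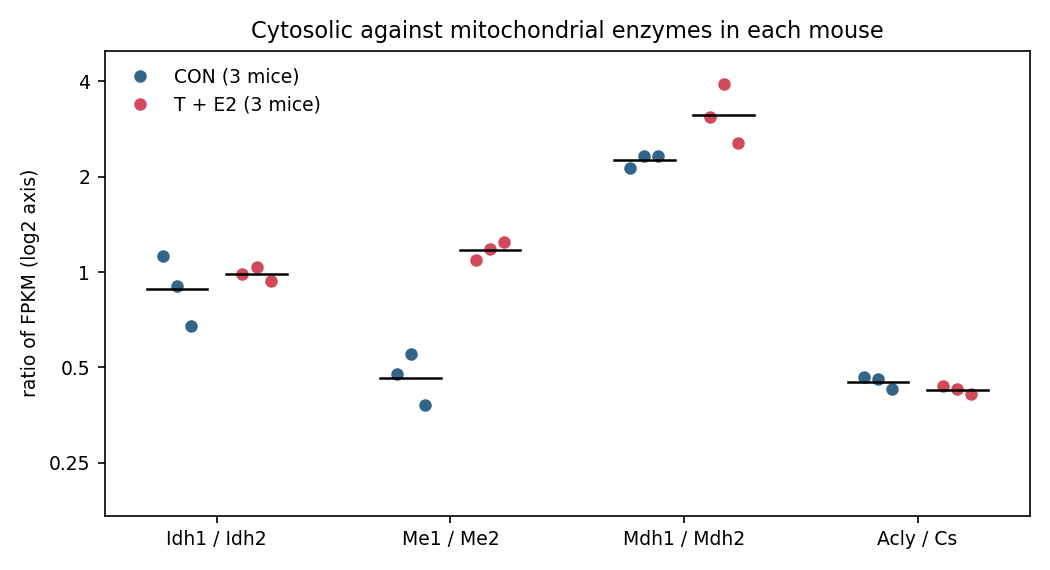
Ratio of FPKM of 4 pairs of enzymes in each mouse, on a log2 axis, with CON mice in blue, T + E2 mice in red and a bar at the geometric mean of each group. The ratio of Me1 to Me2 lies between 0.381 and 0.549 in the CON mice and between 1.09 and 1.24 in the T + E2 mice, and the ratio of Idh1 to Idh2 overlaps between the groups.

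Of 15 tested other enzymes and subunits of the cycle, 1 fell and none rose, and their median log2 fold change was 0.08, with a range from -0.34 to 0.35. For this and the following lists the background is that of all tested genes, of which 10.4% passed as higher and 9.25% as lower. The one that fell was Fh1, fumarase, the enzyme just before malate dehydrogenase in the cycle, from 73.2 ± 6.02 to 57.7 ± 2.61 CPM (± SD, 3 mice a group, log2 fold change -0.34, edgeR adjusted p = 0.0401). Fh1 did not pass when CON replicate 2 was left out. With all mice, DESeq2 and limma also called 1 gene of the list each, and 3 genes had an unadjusted p under 0.05 by edgeR.

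Where pyruvate enters the cycle, 1 of 13 tested genes fell and none rose, with a median log2 fold change of 0.07. This was Pdk2, a kinase that switches the pyruvate dehydrogenase complex off, which fell, from a mean of 130.3 ± 8.91 to 73.6 ± 11.9 CPM (± SD, 3 mice a group, log2 fold change -0.82, edgeR adjusted p = 0.00406) and also passed without CON replicate 2. The subunit gene Pdha1 stood at 231.7 ± 3.61 and 240.3 ± 22.0 CPM (edgeR adjusted p = 0.73).

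Of 7 tested carriers of citrate and related acids, 3 fell and 1 rose. The citrate carrier of the inner mitochondrial membrane, Slc25a1, which hands citrate to Acly, fell, from a mean of 84.5 ± 15.7 to 56.2 ± 7.58 CPM (± SD, 3 mice a group, log2 fold change -0.59, edgeR adjusted p = 0.0322). The dicarboxylate carrier Slc25a10 fell by 0.50 and the aspartate and glutamate carrier Slc25a13 by 0.66 on the log2 scale (edgeR adjusted p = 0.0117 and 0.0286). Slc25a12, the other aspartate and glutamate carrier, rose by 0.37 (edgeR adjusted p = 0.032) and is named after its value was seen. Ank, linked to the release of citrate from cells, had 211.3 ± 64.6 and 278.8 ± 33.1 CPM and did not pass (edgeR adjusted p = 0.203). Without CON replicate 2, which held the seminal vesicle and adipocyte RNA, the genes that passed in this list were Slc25a10 and Ank, and without both libraries that held seminal vesicle RNA only Ank passed. The plasma membrane carrier Slc13a5 had at most 4 counts in any mouse.

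Among 10 genes that feed or drain the cycle, 2 rose and 2 fell. Gls2, a glutaminase, rose, from a mean of 2.36 ± 0.334 to 4.77 ± 0.888 CPM (± SD, 3 mice a group, log2 fold change 1.01, edgeR adjusted p = 0.0204), and Nnt, which makes NADPH in the mitochondrion, rose by 0.51 (edgeR adjusted p = 0.0111). Besides Me2, the mitochondrial Pck2 fell by 0.50 (edgeR adjusted p = 0.0345), and it is named after its value was seen. Pck1 had its highest level in CON replicate 2, at 43.4 CPM against 4.30 and 12.7 CPM in the other CON mice, and did not pass. Without CON replicate 2 the genes that passed were Me2, Nnt and Pck2. Without both libraries that held seminal vesicle RNA they were Nnt and Pck2, so Me2 lost its call there. Gls2, with 30 to 81 counts in a mouse, passed in neither fit.

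Of 8 genes that make or use cytosolic acetyl-CoA, 1 rose and 2 fell. Fasn, fatty acid synthase, which uses NADPH, rose, from a mean of 234.6 ± 39.2 to 462.1 ± 74.4 CPM (± SD, 3 mice a group, log2 fold change 0.98, edgeR adjusted p = 0.00459). Acaca, which turns acetyl-CoA into malonyl-CoA, fell, from a mean of 32.2 ± 4.76 to 19.0 ± 1.301 CPM (log2 fold change -0.77, edgeR adjusted p = 0.005), and Mlycd, which breaks malonyl-CoA down, fell by 0.42 (edgeR adjusted p = 0.0268). Fasn and Acaca also passed without CON replicate 2 and without both libraries that held seminal vesicle RNA, whereas Mlycd passed in neither. Of 4 genes of the NADPH-yielding branch of the pentose phosphate pathway, 1 rose and none fell. G6pdx, the first enzyme of that pathway, rose, from a mean of 88.3 ± 2.02 to 168.5 ± 17.6 CPM (± SD, 3 mice a group, log2 fold change 0.93, edgeR adjusted p = 0.000685). G6pdx also passed without both libraries that held seminal vesicle RNA.

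**Figure D4:**
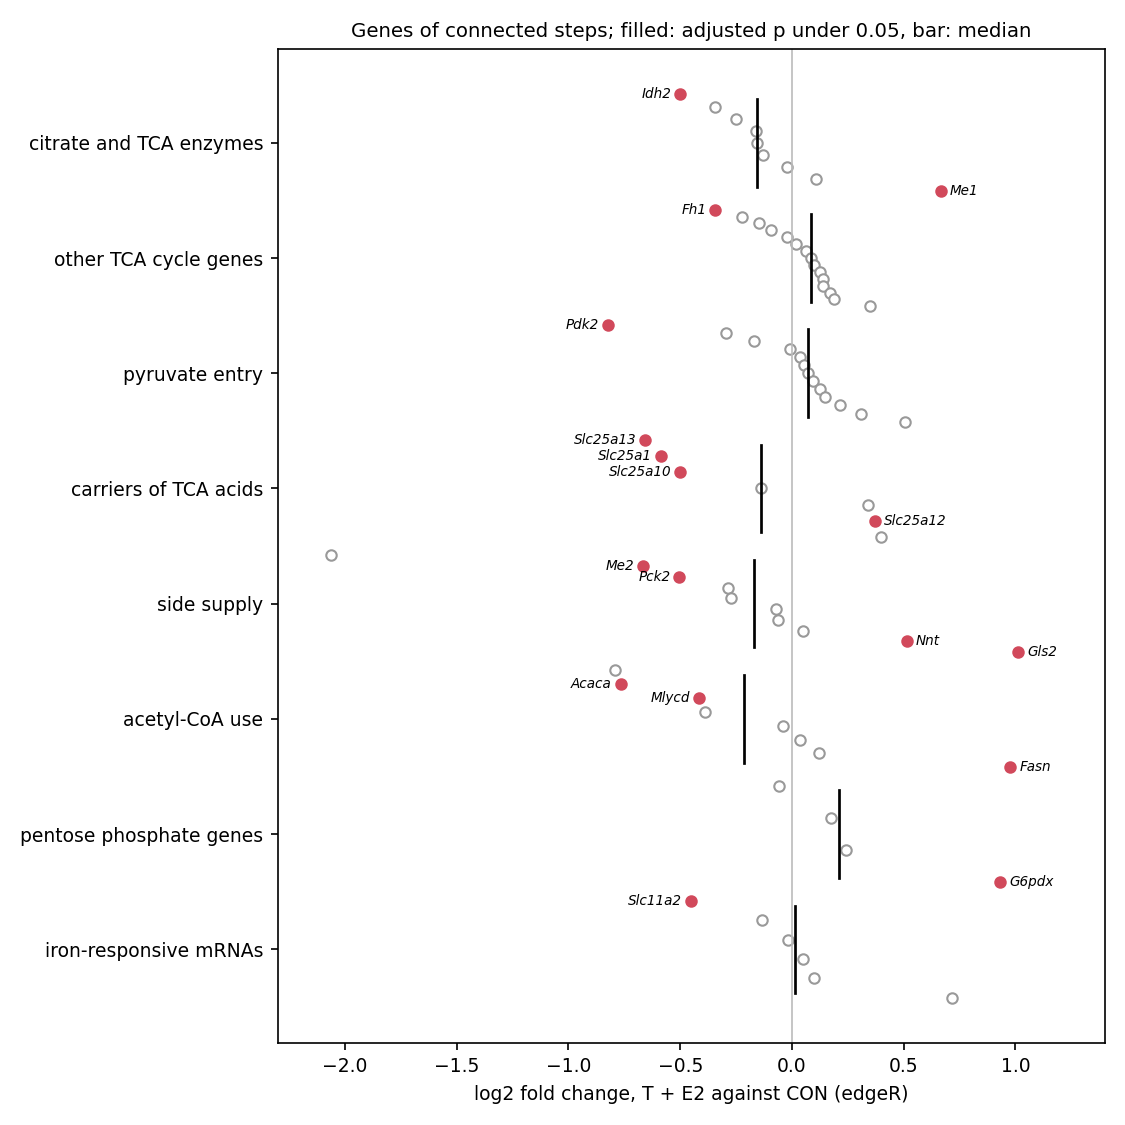
Log2 fold change from edgeR of the tested genes of each list, with genes whose adjusted p is under 0.05 filled and named and a bar at the median of the list. The medians of the 8 lists lie between -0.21 and 0.21, and within the carriers, the side supply and the genes of acetyl-CoA use filled points lie on both sides of 0.

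Since Aco1 also regulates iron, 6 iron genes were read beside it. Of these, 1 fell and none rose with edgeR, namely Slc11a2, an iron importer, from 157.9 ± 12.1 to 115.3 ± 15.2 CPM (± SD, 3 mice a group, log2 fold change -0.45, edgeR adjusted p = 0.0304), and it did not pass without CON replicate 2. Tfrc had a larger log2 fold change, 0.72, and the groups did not overlap, but it did not pass (edgeR adjusted p = 0.0701). DESeq2 called 2 genes of this list and limma 1. Ireb2, which encodes iron regulatory protein 2, was at 89.6 ± 2.62 and 88.5 ± 6.03 CPM (edgeR adjusted p = 0.902).

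Markers of the cell types in the tissue were read beside these results. Of 10 luminal epithelial genes 4 fell and 2 rose, and their summed level was 40938 to 54399 CPM in the CON and 17717 to 19687 CPM in the T + E2 group. Tgm4, a secreted transglutaminase, had means of 23479 and 3129 CPM, while the secretory genes Msmb, at 3058 and 6566 CPM, and Spink1, at 2733 and 4504 CPM, rose. All 6 smooth muscle genes had a negative log2 fold change, 2 of them passed, and their sums were 4085 to 5074 and 3580 to 3921 CPM. Of 5 basal genes 1 rose with edgeR and DESeq2 called 2, with sums of 496 to 534 and 556 to 643 CPM. Without both libraries that held seminal vesicle RNA, none of the smooth muscle or basal genes passed with edgeR, and Krt18 and Spink1 of the luminal genes did not pass. Leukocyte genes summed to 115 to 230 and 206 to 336 CPM, and of 6 tested none passed with edgeR, 1 had an unadjusted p under 0.05 and DESeq2 called 1 and limma 0. Of 3 tested seminal vesicle genes none passed with edgeR, DESeq2 or limma, and 1 had an unadjusted p under 0.05 by edgeR. None of 5 tested adipocyte genes passed with edgeR, 2 had an unadjusted p under 0.05, DESeq2 called 1 and limma 0. Lep had 3 to 10 counts in CON mice and 0 in T + E2 mice, and Ucp1 had at most 1 count in any mouse. Skeletal muscle genes summed to 74.4 to 325 and 91.6 to 267 CPM, and of 7 tested none passed with edgeR, DESeq2 or limma or had an unadjusted p under 0.05. The mitochondrial genome gave 4.03 to 5.33% of all counts in CON mice and 4.70 to 5.94% in T + E2 mice, which overlap. The part of these differences in the results for the 9 enzymes was not tested.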

How the data were processed

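The authors deposited 1 table with raw counts per gene and FPKM for each of the 6 mice. For all 13139 genes with at least 20 counts in every mouse, the deposited FPKM, count and library total implied the same gene length in each mouse (within 0.1%). The submitters' processing notes name TopHat, Bowtie2 and HTSeq. Their versions, the genome build, the annotation and the use of strand are not given in the sources used here. Coordinates of 7 of the 9 genes equal those of GENCODE release M21 on GRCm38.

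Counts were read into edgeR 4.0.16 under R 4.3.3. Low genes were dropped by filterByExpr, with a minimum count of 10 and a minimum total of 15. Libraries were scaled by TMM, and both groups entered 1 model (glmQLFit, glmQLFTest) without covariates. DESeq2, named in the study's methods, was run as an alternative. A gene was called at an adjusted p under 0.05. The SE is the fitted change over the square root of its F statistic, and intervals are 95% intervals. The procedure was tested on simulated data, where most changes of 0.5 on the log2 scale were not called. Far fewer genes were changed there than were called in the real data, and these were drawn from all levels. The simulation therefore does not measure recovery for the 9 genes. The changes fitted for most members were smaller than 0.5, and the recovery of changes of their size was not tested. Each library is a separate animal, and the chi-square per degree of freedom between libraries of 1 group was 16.7 to 36.4, above sampling noise. RefSeq windows were matched by symbol for 8 of the 9 genes. Similar transcripts were sought with BLAST+ 2.17.0+ (identity from 90%, at least 100 aligned bases).

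Alternatives were DESeq2 1.42.0, limma 3.58.1 on log2(FPKM + 0.1) and log2(FPKM + 1), median-of-ratios and total-count scaling, no filter, an FPKM filter, a replicate block and each mouse left out. Leaving out both libraries of replicate number 2 and the other gene length were added after the data were seen. Members and lists were chosen with earlier results of these data known. Named genes were all members, up to 3 called genes with the largest change in each list and the partners in the ratios. Slc25a12, Pck1, Pck2, Pdha1, Ank, Slc13a5, Ireb2 and Tfrc lie outside this rule and were named after their values were seen. The same holds for Pbsn, Tgm4, Msmb, Spink1, Krt18, Lep and Ucp1. Values of 1 gene and the ratio that uses it are not reported here.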

Additional observations from a re-analysis of the deposited data

How the results depend on the processing

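The number of called members was 2 and ranged from 1 to 2 when each mouse was left out in turn, 1 without CON replicate 2, CON replicate 3 or T + E2 replicate 1 because Idh2 missed the threshold. It was 1 without both libraries of replicate number 2, a setting chosen after the data were seen. It was 3, with Acly added, under total-count scaling, limma on log2(FPKM + 0.1) or log2(FPKM + 1), and when genes had to reach 1 FPKM in 3 samples or more. Of 135 values of the members under other settings, 127 kept their side of the threshold, 4 lost the call, 4 gained it and none of a called gene changed sign. The log2 difference of the ratio of Idh1 to Idh2 was 0.17 and ranged from -0.026 without CON replicate 3 to 0.34 when single mice were left out. The replicate numbers name different mice, and deviations of mice with the same number correlated at -0.05, 0.03 and 0.05 over the tested genes. With 3 mice in each group these values cannot tell whether mice of 1 number shared handling, which the labels do not state. Both libraries of replicate number 2 held seminal vesicle RNA. No CON mouse correlated best with the T + E2 mouse of its own number. Of the T + E2 mice, only replicate 3 correlated best with the CON mouse of its number. With the number as a replicate block, 2 members were called, Idh2 and Me1, and 2174 genes in all, against 3061. Over all genes, 1929 were called without CON replicate 3 and 1978 without T + E2 replicate 2, 1354 without both libraries of replicate number 2, and total-count scaling moved the median log2 fold change to -0.04 and left 1421 of 3015 calls higher, against 1620 of 3061. Every member had at least 404 reads in each mouse, and 3 mice in each group limit the precision.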
